A study of Homo sapiens with 22 samples.

Results

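Transcripts of the Hippo pathway were followed through 10 genes: the core kinases STK3, STK4, LATS1 and LATS2, the transcriptional co-activators YAP1 and WWTR1 (whose protein is named TAZ), and the YAP/TAZ-responsive genes AMOTL2, ANKRD1, CTGF (now CCN2) and CYR61 (now CCN1). They were picked by name, CTGF and CYR61 being the symbols that the files use, and all 10 were found among 20668 gene symbols. The RNA came from MDA-MB-231, an established triple-negative breast cancer (TNBC) line, with 5 groups and 2 samples in each. The study describes biological replicates, but the file headers of the 2 vehicle samples carry different times, 2 h and 4 h. Cells kept in medium with charcoal-stripped serum, which has little steroid hormone, received vehicle, 100 nM dexamethasone (Dex) for 2 h or 4 h, or 10 μM Compound A (CpdA) for 2 h or 4 h. Both bind the glucocorticoid receptor (GR), Dex as a synthetic steroid hormone and CpdA as a non-steroidal ligand. The doses of the ligands differ, so every comparison of Dex with CpdA is one of these doses. The study set the ligands side by side to ask which genes each of them controls in TNBC cells, and STK4, a tumour suppressor, was among the genes it followed.

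In the Hippo cascade, STK3 and STK4 (MST2 and MST1) phosphorylate and activate LATS1 and LATS2, which in turn phosphorylate YAP and TAZ. Phosphorylated YAP and TAZ are held in the cytoplasm or degraded, while the unphosphorylated proteins enter the nucleus and drive transcription with the DNA-binding TEAD proteins. CTGF, CYR61 and ANKRD1 are the usual readouts of that activity, and AMOTL2 is a readout that also feeds back by holding YAP at cell junctions. Most of the control of YAP and TAZ is by phosphorylation and location, which RNA does not measure.

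The promoters of 3 target genes are shown because they hold the recognition word of the TEAD proteins close to a start. In the RefSeq windows (GRCh38.p14) of the 250 bases before each gene's start, 8 of the 10 members (all but STK3 and CYR61) had an entry, with 11 windows among them because some genes have more than 1 start. The word searched was GGAATG on either strand, and capitals mark it below, where its reverse complement CATTCC is also a match. The CTGF window (chr6:131951373-131951622, minus strand) held 3 matches, the ANKRD1 window (chr10:90921088-90921337, minus strand) held 2, and 1 of the 2 AMOTL2 windows (chr3:134374448-134374697, minus strand) held 1.
CTGF: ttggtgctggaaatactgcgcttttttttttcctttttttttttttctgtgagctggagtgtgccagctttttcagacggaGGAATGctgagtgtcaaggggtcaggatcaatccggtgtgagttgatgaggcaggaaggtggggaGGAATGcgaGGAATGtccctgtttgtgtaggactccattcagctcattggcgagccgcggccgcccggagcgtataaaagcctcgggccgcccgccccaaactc
ANKRD1: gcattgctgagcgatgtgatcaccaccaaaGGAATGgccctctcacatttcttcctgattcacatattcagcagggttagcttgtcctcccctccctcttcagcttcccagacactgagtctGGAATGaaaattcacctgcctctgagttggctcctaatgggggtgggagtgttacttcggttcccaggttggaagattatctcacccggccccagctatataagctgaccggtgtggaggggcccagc
AMOTL2: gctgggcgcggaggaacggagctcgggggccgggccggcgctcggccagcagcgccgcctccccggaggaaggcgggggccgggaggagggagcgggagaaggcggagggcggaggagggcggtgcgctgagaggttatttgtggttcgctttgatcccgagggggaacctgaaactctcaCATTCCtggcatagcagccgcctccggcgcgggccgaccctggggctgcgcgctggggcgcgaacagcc
Of all 35116 windows of this length, 11.9% held the word at least once, 0.94% at least 2 times and 0.083% at least 3 times. The CTGF matches began 169, 104 and 95 bases before the start, the ANKRD1 matches 220 and 128 bases before it, and the AMOTL2 match lay on the opposite strand 69 to 64 bases before it. The YAP1 window held 1 match, and the windows of STK4, LATS1, LATS2 and WWTR1 held none. The word TGANTCA, a loose form of the AP-1 word with any base at N, was in the ANKRD1 window as TGATTCA, overlapping neither GGAATG. It was also in 1 LATS1 window (6.57% of all windows). The glucocorticoid receptor half-site AGAACA occurred 2 times in the other LATS1 window and in no other member's (12.4% of all windows), and no member's window held the CArG box of SRF (1.16% of all windows). These matches are letters in a window and not measured binding sites.

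All 10 members were expressed and all 10 passed the filter on low values, which asks for an RPKM of 0.5 or more in 2 samples or more and which 12713 genes passed. RPKM scales the reads on a gene by its transcript length and by the mapped reads of the sample, so levels can be compared between genes per length. CYR61 had the highest median RPKM over the 10 samples (556), followed by CTGF (281) and ANKRD1 (276), above 99.9%, 99.4% and 99.4% of all genes. YAP1 (40.9), AMOTL2 (28.8) and WWTR1 (18.8) came next, and the kinases were lower, from LATS2 (13.8) and STK4 (12.4) to STK3 (7.21) and LATS1 (3.81). The kinases and co-activators differed by 1.17-fold (STK3) to 1.48-fold (LATS2) between their lowest and highest samples. For the target genes the same ratio was 1.91 (AMOTL2) to 3.51 (CTGF). The genes lie on GRCh37 at chr6:132269316-132272512 (CTGF), chr1:86046444-86050272 (CYR61), chr10:92671853-92680844 (ANKRD1) and chr3:134074189-134094321 (AMOTL2). YAP1 lies at chr11:101981178-102104155, WWTR1 at chr3:149235022-149454501, STK4 at chr20:43595135-43708662, LATS1 at chr6:149979289-150039241 and LATS2 at chr13:21547175-21635725.

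**Figure D1:**
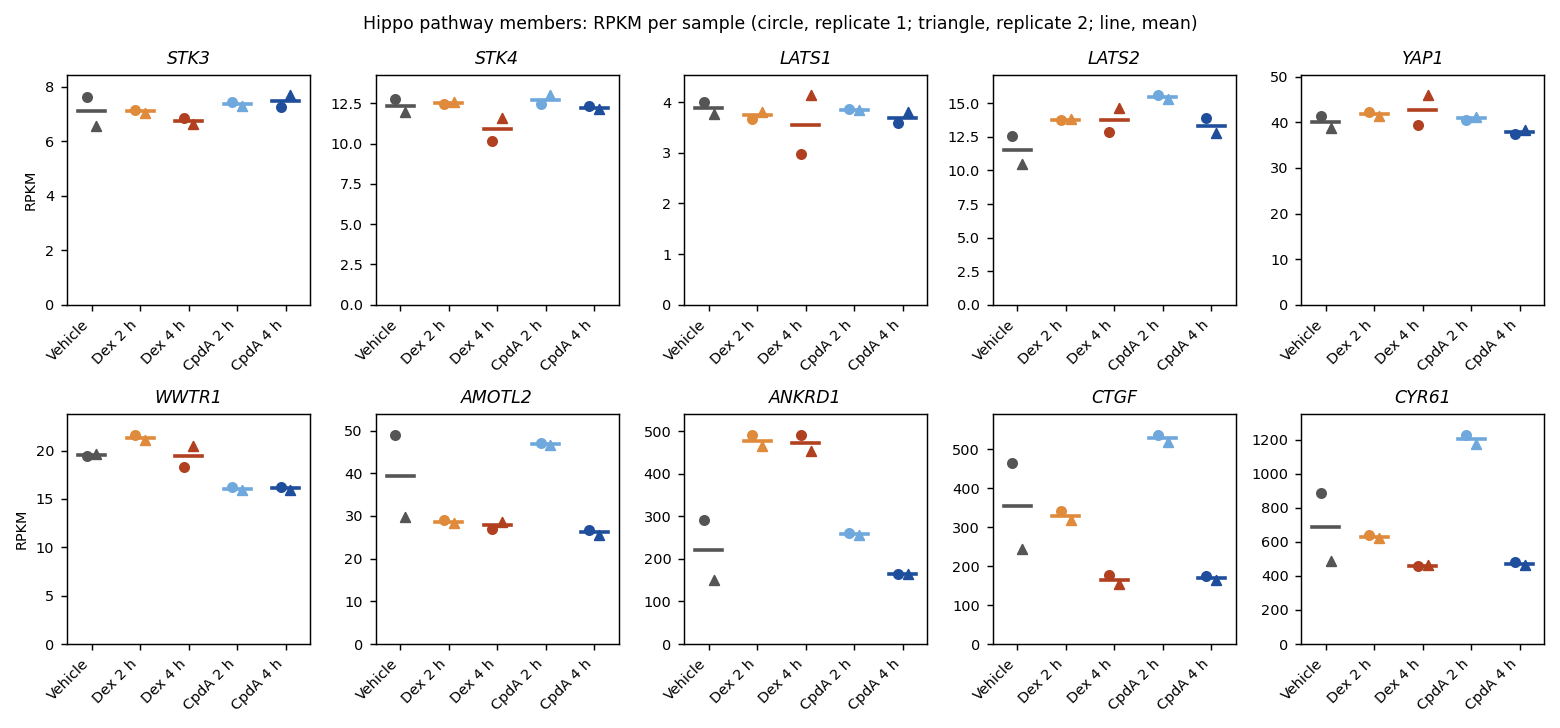
RPKM (linear axes from 0) of the 10 members in every sample, by group, with circles for replicate 1, triangles for replicate 2 and a line at the mean. STK3, STK4 and YAP1 are nearly level, LATS1 is spread within Dex 4 h (2.98 and 4.13), and LATS2 is lowest in vehicle (12.6 and 10.5). WWTR1 is lowest in the 4 CpdA samples (15.9 to 16.2), and ANKRD1 is highest in the 4 Dex samples (455 to 492). AMOTL2, CTGF and CYR61 are high in the CpdA 2 h samples and low in the CpdA 4 h samples. The vehicle samples lie apart from each other in the target genes.

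The 2 vehicle samples stood apart in the target genes, which bears on each comparison with vehicle. Between vehicle replicates 1 and 2, RPKM was 466 and 244 for CTGF, 884 and 489 for CYR61, 291 and 152 for ANKRD1 and 49.0 and 29.7 for AMOTL2. Replicate 1 was thus 1.65-fold (AMOTL2) to 1.92-fold (ANKRD1) above replicate 2, and only 1.03% to 1.80% of the genes tested differed as much between these samples. The other 6 members differed by at most 1.20-fold (LATS2). The labels give the vehicle samples no time, and the column headers of their files carry 2 h for replicate 1 and 4 h for replicate 2. With 1 vehicle sample for each header time, time in culture and sample cannot be told apart. In bulk RNA, a change in every cell and a change in a share of the cells cannot be told apart either.

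The other checks of the series gave little to set against the labels. The relative depth, inferred from how finely the lowest RPKM values are spaced, was 1.0 to 1.21 over the 10 samples, and total reads are unknown. VIM (1267 to 1464 RPKM) was high and ESR1 and PGR were at most 0.00484 and 0.00253 RPKM, while ERBB2 (15.9 to 21.6) and EPCAM (8.02 to 10.6) were not absent. Of 6 markers of leukocytes, endothelium and fibroblasts, PTPRC, CD3E, CDH5 and DCN were at most 0.063 RPKM, while the endothelial PECAM1 read 0.159 to 0.324 and the collagen gene COL1A1 read 1.23 to 2.60. The GR-responsive genes PDK4, TSC22D3, FKBP5 and PER1 were at their highest in Dex samples. Libraries of these kits do not mark strand, and the antisense genes STK4-AS1 and WWTR1-AS1 were at most 0.171 and 0.102 RPKM.

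Of the core kinases, STK3, STK4 and LATS1 moved little on average with either ligand, and LATS2 moved most. In the limma model over the 5 groups, a gene is called where its p, adjusted over the 12713 genes, is under 0.05. With Dex no kinase was called at either time. STK4 read 12.8 and 11.9 RPKM in vehicle, 12.5 and 12.6 with Dex at 2 h and 10.2 and 11.6 with Dex at 4 h, so both Dex 4 h samples lay below both vehicle samples. That log2 fold change was −0.18 ± 0.07 (SE, with a limma adjusted p = 0.069), and 39.7% of the genes tested changed as much in either direction. The size depends on the replicate: without Dex 4 h replicate 2 it was −0.28, since replicate 1 holds the lower value. Replicate 2 lies nearer to vehicle, so the change is smaller without replicate 1.

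STK3, the paralogue of STK4, lay between 6.57 and 7.68 RPKM in all 10 samples, with log2 fold changes against vehicle of −0.07 to 0.08. LATS1 read 3.99 and 3.77 RPKM in vehicle and 2.98 and 4.13 with Dex at 4 h, the lowest and the highest of its 10 values, so its Dex 4 h group spans all others. Between the Dex 4 h replicates LATS1, LATS2, STK4, YAP1 and WWTR1 were all lower in replicate 1, by 1.12-fold (WWTR1) to 1.39-fold (LATS1). Of the genes tested, 5.42% differed as much as LATS1 between these replicates, and 23.7% (YAP1) to 37.4% (WWTR1) as much as the others. The median absolute log2 difference between replicates over all genes tested was 0.123 in Dex 4 h, and 0.053 to 0.083 in the other groups. LATS1 was called lower than vehicle without Dex 4 h replicate 2 (log2 fold change −0.37, limma adjusted p = 0.00584) and had a log2 fold change of 0.09 without replicate 1.

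LATS2 was the kinase with a call. It read 12.6 and 10.5 RPKM in vehicle, 13.7 and 13.9 with Dex at 2 h, 12.9 and 14.6 with Dex at 4 h, 15.6 and 15.3 with CpdA at 2 h and 13.9 and 12.8 with CpdA at 4 h. All 8 treated samples thus lay above both vehicle samples, which all 4 comparisons share. LATS2 rose with CpdA at 2 h by 1.34-fold (log2 fold change 0.43 ± 0.09, limma adjusted p = 0.0245), and was 1.20-fold, 1.19-fold and 1.16-fold above vehicle, without a call, with Dex at 2 h, Dex at 4 h and CpdA at 4 h. The CpdA call was lost without vehicle replicate 2 (log2 fold change 0.30, limma adjusted p = 0.129) and without either CpdA 2 h replicate (0.41 and 0.44, limma adjusted p = 0.171 and 0.13).

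The co-activator YAP1 was called in no comparison. Its values ran from 37.5 RPKM (CpdA 4 h) to 45.9 RPKM (Dex 4 h replicate 2), with 41.4 and 38.7 in vehicle. At 4 h it read 39.3 and 45.9 with Dex and 37.5 and 38.3 with CpdA. The log2 difference was 0.16 (95% interval 0.01 to 0.31, limma adjusted p = 0.0941), and 47.7% of the genes tested differed as much.

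WWTR1, which encodes TAZ, was lower with CpdA. It read 19.4 and 19.7 RPKM in vehicle, 21.6 and 21.0 with Dex at 2 h, 18.3 and 20.5 with Dex at 4 h, 16.2 and 15.9 with CpdA at 2 h and 16.2 and 15.9 with CpdA at 4 h. The 4 CpdA samples lay below the other 6, and the CpdA times could not be separated (log2 difference 0.00, 95% interval −0.12 to 0.13). WWTR1 fell with CpdA to 0.823-fold of vehicle at 2 h (log2 fold change −0.28 ± 0.05, limma adjusted p = 0.019) and 0.825-fold at 4 h (−0.28 ± 0.05, limma adjusted p = 0.00737). Against vehicle replicate 1 or 2 alone the log2 fold changes were −0.27 and −0.29 at 2 h, the first with a limma adjusted p of 0.103, and −0.27 and −0.29 at 4 h. Without CpdA 2 h replicate 1 or 2 the 2 h change was −0.29 and −0.27 (limma adjusted p = 0.124 and 0.14), and without CpdA 4 h replicate 2 the 4 h change was −0.26 (0.061). Its log2 fold changes with Dex were 0.13 at 2 h and −0.01 at 4 h, neither called.

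The 4 target genes did not all follow the same course: CTGF, CYR61 and AMOTL2 had like profiles, and ANKRD1 had another. ANKRD1, an ankyrin repeat protein of muscle and of stretched cells, was higher with Dex: 491 and 466 RPKM at 2 h and 492 and 455 at 4 h, against 291 and 152 in vehicle, 261 and 257 with CpdA at 2 h and 164 and 165 with CpdA at 4 h. Each Dex sample lay above each of the 6 others, and the Dex times overlapped. ANKRD1 rose with Dex by 2.28-fold at 2 h (log2 fold change 1.19 ± 0.23, limma adjusted p = 0.00903) and 2.25-fold at 4 h (1.17 ± 0.23, limma adjusted p = 0.00459). Against vehicle replicate 1 alone the log2 fold changes were 0.72 and 0.70, and against replicate 2 alone 1.66 and 1.64, each of them called. Without Dex 2 h replicate 1 the 2 h change was 1.15 with a limma adjusted p of 0.0698. With CpdA the log2 fold changes were 0.30 at 2 h and −0.35 at 4 h, neither called, and their sign turned with the vehicle sample used (−0.17 and 0.77 at 2 h, −0.82 and 0.115 at 4 h against replicate 1 and 2).

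CTGF, a secreted matricellular protein, was lowest at 4 h with either ligand. It read 466 and 244 RPKM in vehicle, 342 and 318 with Dex at 2 h, 177.0 and 153 with Dex at 4 h, 538 and 518 with CpdA at 2 h and 175 and 166 with CpdA at 4 h. The 4 h samples of both ligands lay below all others and overlapped each other, the Dex 2 h samples lay between the vehicle samples, and the CpdA 2 h samples lay above all others. CTGF fell at 4 h to 0.488-fold of vehicle with Dex (log2 fold change −1.03 ± 0.23, limma adjusted p = 0.00953) and to 0.506-fold with CpdA (−0.98 ± 0.23, limma adjusted p = 0.0168). Both changes were called against either vehicle sample alone, at −1.50 and −0.57 with Dex and −1.45 and −0.52 with CpdA. The CpdA call was lost without CpdA 4 h replicate 1 or 2 (−1.02 and −0.94, limma adjusted p = 0.0761 and 0.0935). At 2 h CTGF was not called with Dex (−0.03) or CpdA (0.65, limma adjusted p = 0.149).

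CYR61, the CCN-family relative of CTGF, had its highest values with CpdA at 2 h. It read 884 and 489 RPKM in vehicle, 640 and 623 with Dex at 2 h, 458 and 461 with Dex at 4 h, 1228 and 1175 with CpdA at 2 h and 482 and 462 with CpdA at 4 h. The CpdA 2 h samples lay above all others, and the 4 h samples of both ligands lay just below the lower vehicle sample. CYR61 rose with CpdA at 2 h by 1.83-fold (log2 fold change 0.87 ± 0.21, limma adjusted p = 0.0428), and against vehicle replicate 1 or 2 alone by 0.44 and 1.30 on the log2 scale, both called. The call was lost without CpdA 2 h replicate 1 or 2 (0.84 and 0.90, limma adjusted p = 0.229 and 0.173) and after quantile normalization (0.72, limma adjusted p = 0.139). The 4 h changes were −0.52 with Dex and −0.48 with CpdA, not called, and were −0.09 and −0.05 against vehicle replicate 2 alone.

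AMOTL2, an angiomotin-like scaffold, was not called against the 2 vehicle samples together. It read 49.0 and 29.7 RPKM in vehicle, 29.0 and 28.3 with Dex at 2 h, 26.9 and 28.7 with Dex at 4 h, 47.2 and 46.6 with CpdA at 2 h and 26.7 and 25.6 with CpdA at 4 h. Apart from vehicle replicate 1 and the CpdA 2 h samples, all its values lay between 25.6 and 29.7. Its log2 fold changes were −0.41, −0.46, 0.29 and −0.54 in the same order of treatments, each with a standard error of 0.18. Against vehicle replicate 1 alone they were −0.77, −0.82, −0.06 and −0.90, and all but the CpdA 2 h value were called. Against replicate 2 alone they were −0.05, −0.10, 0.65 and −0.19, and the CpdA 2 h rise was the 1 call (limma adjusted p = 0.000434).

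Against vehicle, 1 of the 10 members was called with Dex at 2 h and 2 with Dex at 4 h, where 10.3% and 27.4% of all genes tested were called. With CpdA 3 were called at 2 h and 2 at 4 h, where 6.18% and 20.5% of all genes were. In the same order, the counts against vehicle replicate 1 alone were 4, 4, 1 and 5 (7.83%, 23.1%, 3.14% and 17.1% of all genes tested), and those against replicate 2 alone were 4, 3, 6 and 3 (11.8%, 21.8%, 9.38% and 15.1%). For CTGF and CYR61 with Dex at 2 h the vehicle sample set the sign. Against replicate 1 they were lower, by −0.50 and −0.49 on the log2 scale (limma adjusted p = 0.0135 and 0.00146), and against replicate 2 they were higher, by 0.44 and 0.37 (limma adjusted p = 0.0201 and 0.00583). Where each treatment is set against the vehicle sample whose header carries its time, CYR61 was at −0.49 and −0.09 with Dex and at 0.44 and −0.05 with CpdA at 2 h and 4 h, and AMOTL2 at −0.77, −0.10, −0.06 and −0.19.

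**Figure D2:**
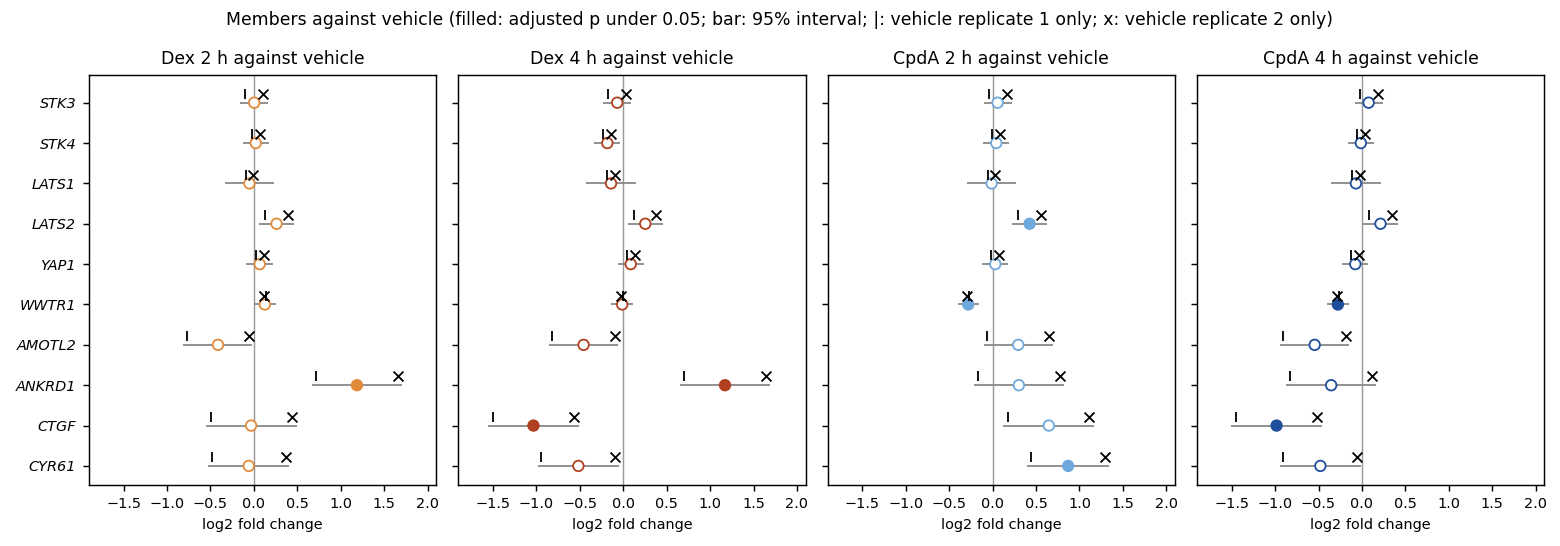
Log2 fold changes of the 10 members against vehicle in 4 panels by treatment, with circles for the limma estimate (filled where the adjusted p is under 0.05), bars for the 95% interval, and a vertical tick or a cross for the value against vehicle replicate 1 or 2 alone. For the 4 target genes the tick and the cross lie far apart, as for CTGF with Dex at 2 h (−0.50 and 0.44), while ANKRD1 with Dex stays above 0 in both and WWTR1 with CpdA below 0 in both.

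Comparing Dex directly with CpdA at the same time needs no vehicle sample, and there 3 of the 4 target genes differed at 2 h. At 2 h 4 of the 10 members were called (13.7% of all genes tested). WWTR1 (log2 difference 0.41 ± 0.05, limma adjusted p = 0.000921) and ANKRD1 (0.88 ± 0.23, limma adjusted p = 0.0316) were higher with Dex, and AMOTL2 (−0.71 ± 0.18, limma adjusted p = 0.0264) and CYR61 (−0.93 ± 0.21, limma adjusted p = 0.0162) were higher with CpdA. CTGF was lower with Dex by 0.68 on this scale, outside the call (95% interval −1.20 to −0.15, limma adjusted p = 0.0965). The standard errors of the 4 target genes in this model take in the spread of the vehicle samples.

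A fit of the 8 treated samples alone, chosen after that spread had been seen, gave the same differences, with smaller errors for the target genes. It called 5 members at 2 h (14.6% of all genes): CTGF (−0.68 ± 0.07, limma adjusted p = 0.000561), AMOTL2 (−0.71 ± 0.04, 2.07e-05), CYR61 (−0.93 ± 0.05, 7.32e-06), ANKRD1 (0.88 ± 0.05, 1.35e-05) and WWTR1 (0.41 ± 0.06, 0.00196). In the fit of 10 samples, leaving out any 1 of the 4 libraries of the 2 h comparison left WWTR1 as the 1 call. The log2 difference was then −0.69 to −0.72 for AMOTL2 (limma adjusted p = 0.117 to 0.133), 0.85 to 0.92 for ANKRD1 (0.114 to 0.163) and −0.90 to −0.96 for CYR61 (0.0754 to 0.0998). The sizes thus moved little, while the calls of these 3 genes were lost. Fits with 1 library in a group called fewer of all genes tested in this comparison too, and why the calls of these 3 genes were lost was not tested.

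At 4 h, where 33.4% of all genes tested were called, 2 of the 10 members were. ANKRD1 was 2.88-fold higher with Dex (log2 difference 1.53 ± 0.23, limma adjusted p = 0.00079), and WWTR1 was 1.20-fold higher (0.26 ± 0.05, limma adjusted p = 0.00504). The other target genes were level between the ligands: AMOTL2 at 0.09 (95% interval −0.31 to 0.49), CTGF at −0.05 (−0.57 to 0.47) and CYR61 at −0.04 (−0.51 to 0.43). The fit of the treated samples called the same pair of genes (34.8% of all genes), and in it the intervals of AMOTL2, CTGF and CYR61 were −0.01 to 0.19, −0.22 to 0.12 and −0.15 to 0.07. No kinase was called at either time. STK4 at 4 h had a log2 difference of −0.17 (limma adjusted p = 0.0758). Without Dex 4 h replicate 2 STK4 was at −0.27 and LATS1 at −0.30, since replicate 1 holds the lower value of both genes. YAP1 was at 0.27 without Dex 4 h replicate 1, which holds its lower Dex 4 h value.

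**Figure D3:**
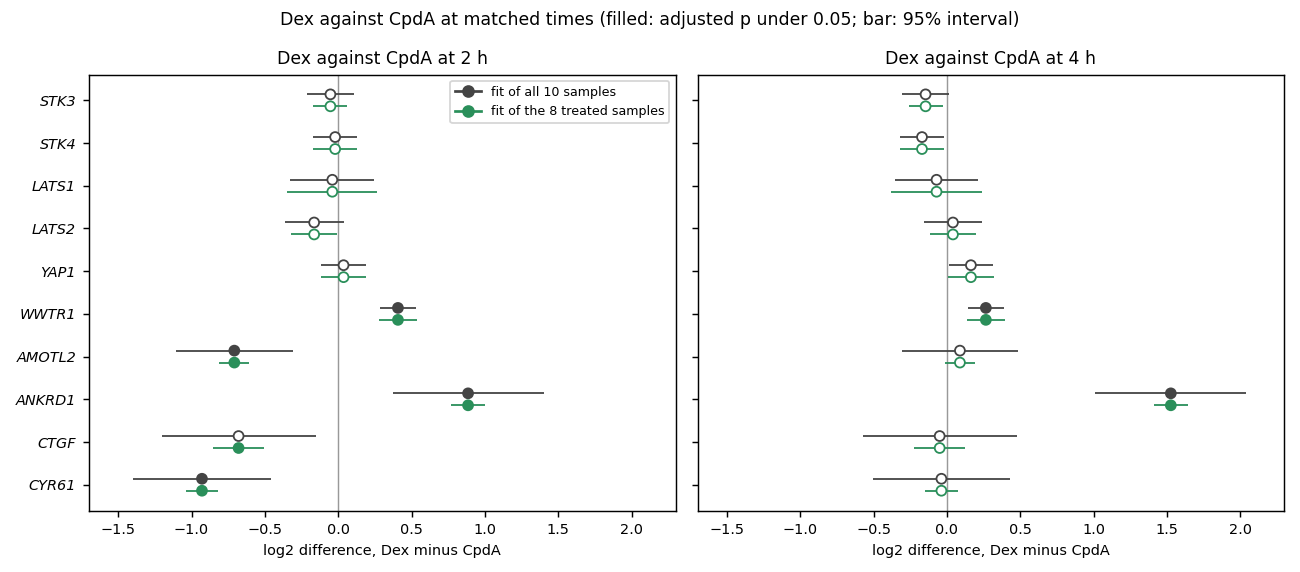
Log2 difference of Dex from CpdA for the 10 members at 2 h and at 4 h, in the fit of all 10 samples (dark) and of the 8 treated samples (green), with bars for the 95% interval and filled circles where the adjusted p is under 0.05. At 2 h AMOTL2, CTGF and CYR61 lie left of 0 (−0.71, −0.68 and −0.93) and at 4 h all 3 lie near 0, while ANKRD1 lies right of 0 at both times (0.88 and 1.53).

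Between 2 h and 4 h 3 of the 4 target genes fell with CpdA. Vehicle replicate 2 (header 4 h) also lay below vehicle replicate 1 (header 2 h) in all 4. Those log2 differences were −0.93 for CTGF, −0.85 for CYR61, −0.72 for AMOTL2 and −0.94 for ANKRD1. With 1 vehicle sample for each header time, whether vehicle shares the falls was not tested. With CpdA 3 of the 10 members were called (12.4% of all genes tested): CTGF fell to 0.323-fold (log2 difference −1.63 ± 0.23, limma adjusted p = 0.00404), CYR61 to 0.393-fold (−1.35 ± 0.21, limma adjusted p = 0.0055) and AMOTL2 to 0.559-fold (−0.84 ± 0.18, limma adjusted p = 0.0168). As large a change in either direction was seen in 0.22% of the genes tested for CTGF and 0.33% for CYR61. ANKRD1 differed by −0.66 (limma adjusted p = 0.0946), and by the same value with a limma adjusted p of 0.000293 in the fit of the treated samples, which called these 4 members (15.5% of all genes). AMOTL2 lost its call whichever 1 of the 4 CpdA libraries was left out (−0.81 to −0.87). CYR61 lost it without CpdA 2 h replicate 1 or CpdA 4 h replicate 2 (−1.32 in both). These fits called fewer of all genes tested too, and why AMOTL2 and CYR61 lost their calls was not tested.

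With Dex, CTGF alone was called between the times (13.6% of all genes tested), falling to 0.499-fold (log2 difference −1.0 ± 0.23, limma adjusted p = 0.0232). It lost the call whichever 1 of the 4 Dex libraries was left out (−0.90 to −1.11, limma adjusted p = 0.0515 to 0.131). In the fit of the treated samples, where 16% of all genes were called, CTGF (limma adjusted p = 0.000215) and CYR61 (−0.46 ± 0.05, 0.000847) were called. ANKRD1 (−0.02) and AMOTL2 (−0.04) were level between the Dex times. The vehicle differences given above for these genes stand beside the Dex changes too, and a change with time in vehicle was not tested.

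The change with time in the difference between the ligands was tested as an interaction. In the fit of 10 samples limma called none of the 10 members (6.6% of all genes tested), and 2 of them, AMOTL2 and CYR61, had an unadjusted p under 0.05. In the fit of the 8 treated samples 4 were called (7.93% of all genes), and they were the 4 target genes, each with a positive value (3.69% of all genes were called with one): CYR61 (0.89 ± 0.07, limma adjusted p = 0.000624), AMOTL2 (0.80 ± 0.06, 0.000659), ANKRD1 (0.64 ± 0.07, 0.00215) and CTGF (0.63 ± 0.10, 0.012). The estimates are the same in both fits, and the errors differ by the vehicle samples that the second leaves out.

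Over the 10 samples, CTGF, CYR61 and AMOTL2 had like profiles and ANKRD1 had another. Pearson's r of log2(RPKM + 0.1) was 0.948 between CTGF and CYR61, 0.927 between AMOTL2 and CYR61 and 0.874 between AMOTL2 and CTGF, and r of ANKRD1 with these was 0.076, 0.025 and −0.051 for CTGF, CYR61 and AMOTL2. The 10 points share 5 groups and the gap between the vehicle samples, so these values are descriptions. Among the genes most alike over all genes tested were IQCJ-SCHIP1 (0.974) and LYPLAL1 (0.971) for CTGF. For CYR61 they were CCL28 (0.95), IQCJ-SCHIP1 (0.95) and CTGF, and for AMOTL2 ATP1B1 (0.954), IQCJ-SCHIP1 (0.93) and CYR61. The genes most like ANKRD1 were LPP-AS2 (0.994), WBP4 (0.988) and RNF144A (0.982).

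Upstream of the core kinases, 25 of 29 listed kinases, adaptors and membrane regulators passed the filter. With Dex 1 rose and 4 fell at 2 h and 2 rose and 10 fell at 4 h, and with CpdA 1 fell at 2 h and 1 rose and 6 fell at 4 h. That is 20% and 48% of the 25 with Dex and 4% and 28% with CpdA, where 10.3%, 27.4%, 6.18% and 20.5% of all genes tested were called. The list's median log2 fold change with Dex at 4 h was −0.17, and that of all genes tested was −0.05. FRMD6, the FERM-domain protein that recruits the cascade to the membrane, was lower in all 4 treatments: 117 and 121 RPKM in vehicle, 74.8 and 70.1, then 59.2 and 62.1 with Dex, and 82.8 and 81.6, then 83.0 and 78.7 with CpdA. Its log2 fold changes were −0.72 and −0.97 with Dex and −0.54 and −0.56 with CpdA (limma adjusted p = 7.1e-07 to 0.000389).

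Among the RASSF adaptors, which bind STK3 and STK4, RASSF5 fell with Dex by −0.77 at 2 h and −1.16 at 4 h on the log2 scale (limma adjusted p = 0.000441 and 1.51e-05). RASSF4 rose with Dex by 0.49 and 0.91 and fell with CpdA at 4 h by −0.43 (limma adjusted p = 0.00707, 7.75e-05 and 0.00977). SAV1, the scaffold that joins STK3 and STK4 to LATS1 and LATS2, fell at 4 h with Dex (−0.50) and with CpdA (−0.37), and NF2 fell with Dex at 2 h (−0.39) and 4 h (−0.44) and with CpdA at 4 h (−0.31). In the STRIPAK phosphatase complex, which acts against STK3 and STK4, 14 of 14 genes were tested, and 6 were called with Dex at 4 h (1 higher) and 2 with CpdA at 4 h (1 higher), or 42.9% and 14.3% of them against 27.4% and 20.5% of all genes tested. Of its catalytic subunits, PPP2CB rose with Dex by 0.41 and 0.66 and with CpdA at 4 h by 0.31. PPP2CA was called against vehicle with neither ligand (−0.06 and −0.01 with Dex, −0.02 and 0.07 with CpdA). PPP2R1B fell at 4 h with Dex (−0.25) and with CpdA (−0.24).

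Of 11 junction scaffolds tested, 5 were called with Dex at 4 h and 4 with CpdA at 4 h, all of them lower (18.2% and 13.8% of all genes tested were called lower). LIMD1 and AJUBA, LIM proteins that hold LATS kinases, fell with Dex by −0.43 and −0.50 at 2 h and by −0.95 and −0.53 at 4 h, and AJUBA fell with CpdA at 4 h by −0.63. MPP5, a cell-polarity scaffold, fell with CpdA by −0.24 and −0.60 and with Dex at 4 h by −0.31. Of 8 genes of YAP and TAZ turnover, 5 were called with Dex at 4 h, where 27.4% of all genes tested were. The related ubiquitin ligases NEDD4 (1.11) and NEDD4L (−1.05) went opposite ways, as did the casein kinases CSNK1D (0.41) and CSNK1E (−0.35), all at Dex 4 h.

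Of the TEAD and VGLL genes, 6 of 8 listed passed the filter. TEAD1, TEAD2 and TEAD4 were called against vehicle with neither ligand. TEAD3 read 29.7 and 27.0 RPKM in vehicle and 47.4 and 45.9 with Dex at 4 h, a rise of 0.72 ± 0.05 on the log2 scale (limma adjusted p = 8.87e-06), and 26.6 and 27.6 with CpdA at 4 h. VGLL4, a co-repressor that competes with YAP for TEAD, read 10.6 and 9.17 RPKM in vehicle, 14.2 and 13.5 with Dex at 2 h, 12.7 and 12.2 with Dex at 4 h and 6.54 and 6.32 with CpdA at 4 h. It rose with Dex (0.48 and 0.33) and fell with CpdA at 4 h (−0.61).

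A further 17 genes of a YAP/TAZ target signature were all tested, and with Dex 2 rose and none fell at 2 h, and 2 rose and 6 fell at 4 h. With CpdA 1 rose and 2 fell at 2 h and 2 rose and 5 fell at 4 h. The shares called were 11.8% and 47.1% with Dex and 17.6% and 41.2% with CpdA, against 10.3%, 27.4%, 6.18% and 20.5% of all genes tested, so the Dex 2 h share lay near that of all genes. GADD45A, a stress-response gene, rose in all 4 treatments, by 0.92 and 0.58 with Dex and by 1.04 and 0.53 with CpdA. F3, the tissue factor that starts blood clotting, read 498 and 336 RPKM in vehicle, 293 and 289, then 206 and 196 with Dex, and 532 and 533, then 343 and 336 with CpdA, and fell with Dex at 4 h (−1.02 ± 0.14, limma adjusted p = 0.000575). The kinase gene NUAK2 fell with Dex at 4 h (−2.19 ± 0.43, limma adjusted p = 0.00505), from 3.71 and 1.05 RPKM in vehicle to 0.301 and 0.43. F3, NUAK2 and GADD45A were all higher in vehicle replicate 1, like the 4 target genes. FJX1 (−0.44 and −0.73) and FOXF2 (−0.32 and −0.42) fell with CpdA, and AXL fell at 4 h with CpdA (−0.23) and with Dex (−0.24). Of the other CCN genes only NOV (CCN3) passed the filter, and it was called in no comparison.

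SRF and its MRTF co-activators also drive CTGF, CYR61 and cytoskeletal genes, and 16 of 17 listed genes were tested. With Dex at 4 h 4 rose and 3 fell, 43.8% of them against 27.4% of all genes tested. VCL (vinculin) read 114 and 108 RPKM in vehicle, 155 and 158 with Dex at 2 h, 204 and 235 with Dex at 4 h and 106 to 114 in the CpdA samples, and the MRTF-A gene MKL1 rose beside it (0.98 for each at Dex 4 h). SRF (−0.63), FHL2 (−0.85) and TAGLN (−0.54) fell. With CpdA 1 of the 16 was called at 2 h and 2 at 4 h (6.25% and 12.5%), against 6.18% and 20.5% of all genes tested. The 2 at 4 h were TAGLN, which rose (0.53), and SRF, which fell (−0.26).

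Between the ligands at 4 h, 11 of the 25 upstream genes, 4 of the 11 scaffolds, 4 of the 14 STRIPAK genes, 4 of the 8 turnover genes, 2 of the 6 TEAD and VGLL genes, 8 of the 17 signature genes and 10 of the 16 SRF and MRTF genes were called. The share over all genes was 33.4%, and the lists' median log2 differences lay between −0.13 and 0.15, with −0.02 over all genes tested.

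**Figure D4:**
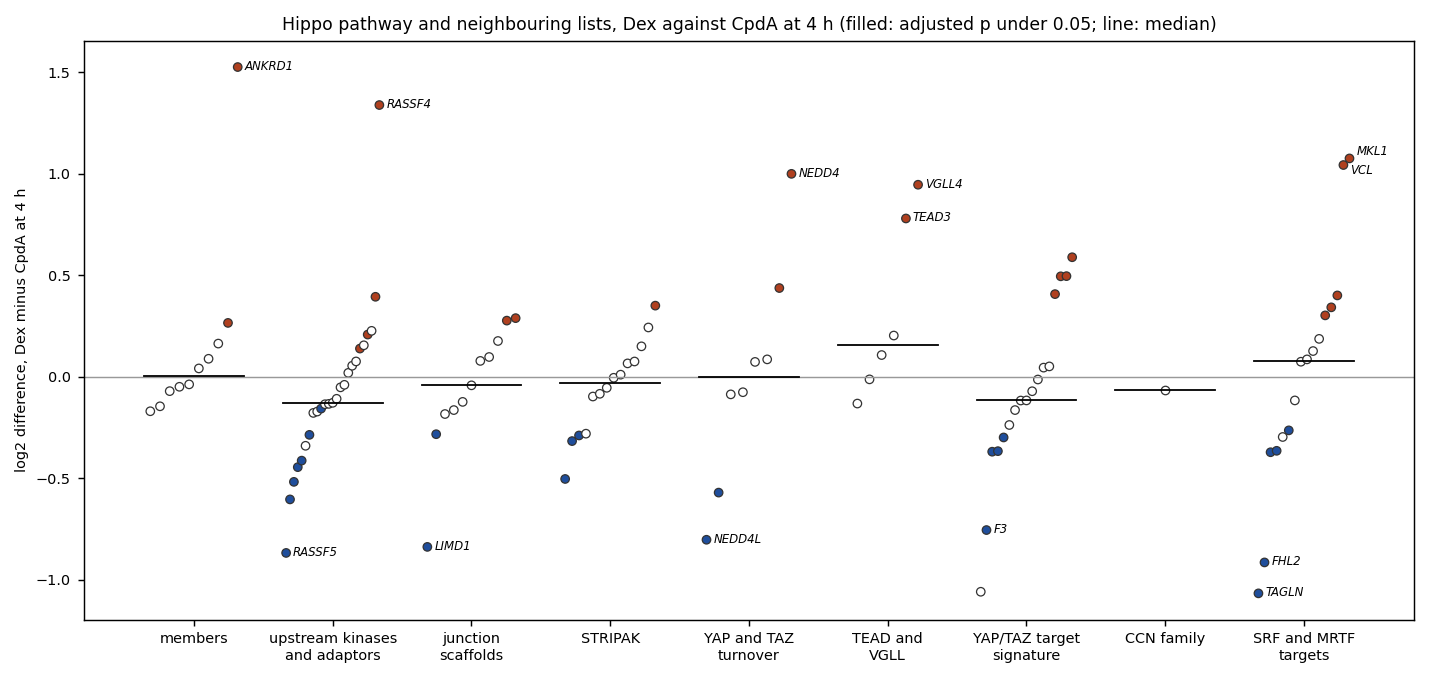
Log2 difference of Dex from CpdA at 4 h for the members and the 8 further lists, with 1 point a gene, filled red (higher with Dex) or blue (lower) where the adjusted p is under 0.05, and a line at each list's median. ANKRD1 (1.53) and RASSF4 (1.34) are the highest points and TAGLN (−1.07) the lowest, and the medians stay close to 0.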

How the data were processed

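RNA was sequenced from 10 samples of MDA-MB-231 cells, grouped by their labels, and 12 ChIP samples of the series were not analysed here. Per the labels, the authors made libraries with a TruSeq kit that does not mark strand, aligned reads with TopHat2 2.0.13 and Bowtie and estimated abundance in Partek 6.6. The deposited values are RPKM for 20668 gene symbols. hg19 is named in the submitters' processing notes. How transcripts were combined into symbols is not given in the sources used here. Low RPKM moves in steps of 1 read, and read totals are unknown, so no interval from counts was given.

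RPKM was not normalized further. For the 12713 genes at an RPKM of 0.5 or more in 2 samples or more, log2(RPKM + 0.1) was fitted over the 5 groups with limma 3.58.1 (R 4.3.3, eBayes with an abundance trend), which was tested on simulated data. Fold changes are on this scale, which understates changes of low genes. Each p-value was adjusted over all genes tested (Benjamini-Hochberg), and a gene was called under 0.05. Confidence intervals are at 95%. With 2 against 2 samples an exact permutation test cannot go below p = 0.333, so each test rests on limma's pooled variance. Alternatives were other pseudocounts, filters and scalings, no trend, only the groups compared, a replicate block, each replicate left out, and, added after seeing the data, a fit of the 8 treated samples.

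The members and lists were chosen with earlier results of these data known. Named are the members, from each further list and comparison up to 4 called genes per direction with the largest change, and the 3 genes most like each target gene. Some genes that this rule picks are not reported here. TEAD1, TEAD2, TEAD4 and PPP2CA were added after their values were seen. PTPN14 is in both the scaffold and the signature list. Promoter windows are from RefSeq (GRCh38.p14), and gene positions are from GENCODE v44 lifted to GRCh37. Tables and plots used Python 3.11.15, numpy 2.4.6, pandas 2.3.3 and matplotlib 3.10.9.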

Additional observations from a re-analysis of the deposited data

Results flagged for a closer look

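The difference between Dex and CpdA itself differed between 4 h and 2 h, by limma's interaction term, for 4 of the 10 members in the fit of the 8 treated samples (7.93% of all genes tested) and for 10 of the 97 genes of the further lists in the fit of 10 samples (6.6% of all genes tested). For the members the values on the log2 scale (4 h minus 2 h) were 0.89 for CYR61, 0.80 for AMOTL2, 0.64 for ANKRD1 and 0.63 for CTGF. In the fit of 10 samples limma called none of the 10 members, and 2 had an unadjusted p under 0.05. The fit of the 8 treated samples was chosen after the spread of the vehicle samples in the target genes had been seen. The count of members and that of the further lists thus come from unlike fits. Among the further lists, in the fit of 10 samples, the value was 0.95 for RASSF4, 0.68 for FILIP1L, 0.63 for TEAD3, 0.58 for ARHGEF17, 0.58 for VCL, 0.51 for MKL1 and 0.40 for AJUBA. It was −0.55 for LIMD1, −0.43 for MAP4K5 and −0.41 for NEDD4L. No test of a sample far from its group was made, since each group holds 2 samples.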

How the results depend on the processing

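With 2 samples a group, the counts of the 10 members called moved with the fit. The share of all genes tested that was called in the same fit is given in brackets. Without a filter on low values they were 0 for Dex 2 h (5.74%), 1 for CpdA 2 h (2.56%), 1 for CpdA 4 h (11%), 1 for Dex against CpdA at 2 h (7.68%) and 0 for Dex 4 h against 2 h (6.12%), where 1, 3, 2, 4 and 1 are reported (10.3%, 6.18%, 20.5%, 13.7% and 13.6%). Without the abundance trend they were 1 for CpdA 2 h (5.12%) and 2 for Dex against CpdA at 2 h (13%). With only the groups compared they were 0 for Dex 2 h (7.99%), 1 for CpdA 2 h (3.78%), 1 for CpdA 4 h (19.1%), 2 for Dex 4 h against 2 h (5.47%), 6 for CpdA 4 h against 2 h (27.5%) and 4 for the interaction (7.93%), which then holds the 8 treated samples. Without both vehicle samples they were 2 for Dex 4 h against 2 h (16%) and 4 for the interaction (7.93%), where 0 is reported (6.6%). Leaving out 1 replicate, the lone sample being assumed to vary like the others, gave 0 to 4 for Dex 2 h (6.03% to 11.8%), 3 to 4 for Dex 4 h (21.8% to 37.5%), 0 to 6 for CpdA 2 h (1.7% to 9.38%), 0 to 5 for CpdA 4 h (9.36% to 17.1%), 1 for Dex against CpdA at 2 h (7.54% to 8.53%) and 2 to 4 at 4 h (21.7% to 40.8%). It gave 0 to 3 for Dex 4 h against 2 h (4.66% to 27.1%), 1 to 2 for CpdA 4 h against 2 h (2.05% to 2.35%) and 0 to 1 for the interaction (2.3% to 16.8%). CTGF and CYR61 with Dex at 2 h turned from −0.03 and −0.06 to 0.44 and 0.37 without vehicle replicate 1, and were −0.50 and −0.49 without vehicle replicate 2. The causes of the changes with filter and trend were not tested. Same-numbered samples deviated together with correlations of −0.057 to 0.198, over 0.1 in 3 of 10 pairs of groups. No value to expect without pairing was made, so this cannot decide whether the numbers pair the samples. With the replicate block the counts were 1, 2, 3, 2, 4, 2, 1, 3 and 0 in the order of the report, each equal to the count without it. Of 1260 values of single members under these alternatives, 1112 kept their sign and their side of the threshold, 52 kept the sign and lost a call and 46 kept it and gained one. A further 48 changed sign with no call in either fit, and 2, those of CTGF and CYR61 given above, changed sign with a call under the alternative. No scaling moved the median of all genes by over 0.1 (log2). Read totals are unknown, so counting error of the weakly expressed LATS1 and NUAK2 is not known.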
